A study of Xenopus laevis with 18 samples.

Results

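Whole embryos of the frog Xenopus laevis, J strain, were compared before and after the main movements of gastrulation, using 6 of the 18 RNA libraries of a developmental series. The members were chosen by stage on the Nieuwkoop and Faber (NF) scale. The earlier group held the libraries of NF 8.5, NF 9 and NF 10, and the later group those of NF 12, NF 14 and NF 16. Embryos of both groups were untreated by the labels, were raised in dilute saline with an antibiotic and were snap frozen, and their RNA was depleted of ribosomal RNA. Each stage has 1 library, so the 3 libraries of a group are neighbouring stages and not repeats of 1 stage. The spread behind every SD and p-value therefore holds real change during a window as well as technical error, and whether libraries came from separate clutches is not given in the labels.

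By background, NF 8.5 and NF 9 are blastula stages, after the embryo's own genome has begun to be transcribed. At NF 10 the dorsal lip of the blastopore appears and gastrulation starts. At NF 12 the yolk plug is small, at NF 14 the neural plate is visible, and at NF 16 the neural folds are rising. The egg is stocked with maternal messenger RNA, much of which is degraded while zygotic transcripts of the germ layers and, later, of the neural plate and somites accumulate. In a whole embryo the 2 processes overlap, and a level per library cannot tell fewer cells that hold a transcript from less of it per cell. Rows of the table carry sequence names, and none of the 30993 Xenopus rows matched the gene table used here (0 matches). No gene is therefore named, no marker list could be read, and the embryo label could not be checked against markers. No sequences are shown for the same reason.

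Levels are TPM (transcripts scaled to a total of 1000000), an abundance per transcript length and relative to the Xenopus total of a library. The files give no read counts. Sequencing depth is therefore unknown, and a listed 0 need not mean that a transcript was absent. In the 6 libraries between 6 and 21 rows per library were at 0 although both neighbouring stages stood at 10 TPM or more. Synthetic ERCC spike-in RNAs, a yardstick added to the samples, held between 34.4% and 42.0% of the deposited total. The deposited columns of the 3 earlier libraries sum to over 1000000 and those of the 3 later ones do not, so the kind of column and the group cannot be told apart. What differs in the file is the spike-in rows. In all 9 columns of the series that exceed 1000000, every Xenopus row has 2 decimals, while 42 of the 92 spike-in rows have more. Multiplying 23 spike-in rows by 4, 21 by 0.67 and 23 by 0.5, with 25 left as they are, brought each of these columns to within 0.00144% of 1000000. The Xenopus rows needed no factor.

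Every library of one group differed more from those of the other group than from its own. The 13089 rows compared had a mean of 10 TPM or more over the 6 libraries. Of these, 3.01% differed 2-fold or more between NF 8.5 and NF 9, on the scale of log2(TPM + 1). Against NF 10 the share was 18.1% for NF 8.5 and 14.0% for NF 9. In the later group it was 2.28% for NF 14 against NF 16. NF 12 differed in 17.4% of rows from NF 14 and in 20.2% from NF 16. Between groups it ran from 36.0%, for NF 10 against NF 12, to 62.6%, for NF 8.5 against NF 16. NF 10 and NF 12 are thus the inner edges of both groups, and each also stands apart from the other 2 libraries on its own side. The median SD of a row over the 3 libraries of a group was 0.22 in the earlier and 0.32 in the later group on the log2 scale, against a median absolute difference between groups of 1.15. The correlation of log2 levels across these rows, which are not independent, was 0.95 for NF 8.5 against NF 9 and 0.96 for NF 14 against NF 16. It was 0.70 for NF 10 against NF 12 and 0.23 for NF 8.5 against NF 16.

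**Figure D1:**
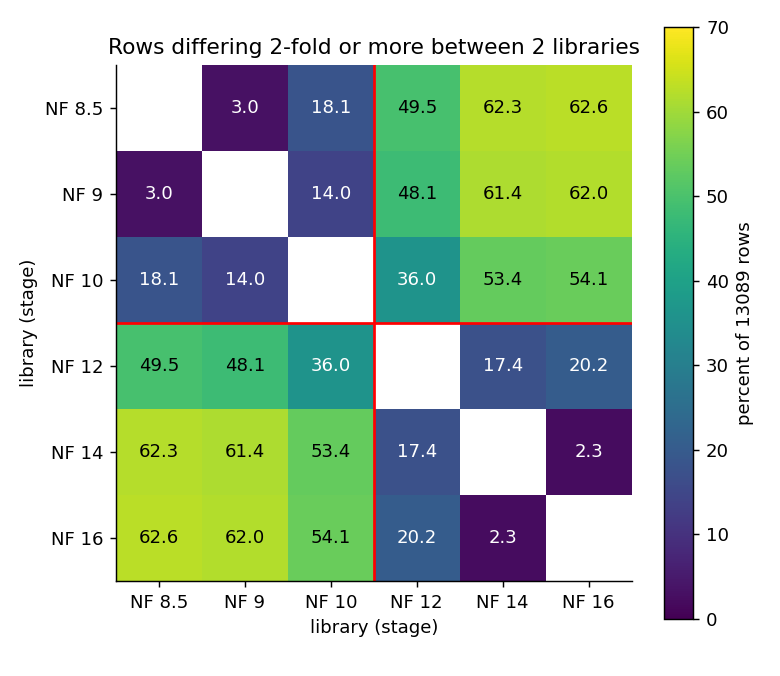
Percent of the 13089 rows with a mean of 10 TPM or more that differ 2-fold or more, on the log2(TPM + 1) scale, between each pair of libraries. The red lines divide the earlier from the later group, and the off-diagonal blocks run from 36.0% to 62.6% against 2.28% to 20.2% within groups.

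Later embryos listed more kinds of transcript, and fewer of them at a middling level. Rows above 0 numbered 21367, 21793 and 22184 at NF 8.5, NF 9 and NF 10, and 23744, 23569 and 23196 at NF 12, NF 14 and NF 16. The groups did not overlap, and the mean was higher by 1722 in the later group. Rows at 10 TPM or more went the other way, with 13285, 13262 and 12504 in the earlier libraries and 10917, 10306 and 10418 in the later ones. At the top of the range there were more rows again. Those at 1000 TPM or more numbered 37, 45 and 61 before and 94, 113 and 116 after. The 100 most abundant rows of each library held 16.3%, 17.1% and 25.5% of the Xenopus total at NF 8.5, NF 9 and NF 10, and 27.0%, 28.5% and 26.5% at NF 12, NF 14 and NF 16. For this share NF 10 lay much closer to the later libraries than to NF 8.5 and NF 9. Each of these 4 differences reached p = 0.1 by a two-sided exact permutation test, the smallest value that 3 against 3 libraries can give, and 0.157 after adjustment over 11 such values. The design cannot pass a threshold of 0.05 for a single value.

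The amount of Xenopus RNA per spike-in did not differ beyond the spread of the libraries. The Xenopus total divided by the spike-in total was 1.59 at NF 8.5, 1.41 at NF 9 and 1.38 at NF 10, and 1.39 at NF 12, 1.91 at NF 14 and 1.50 at NF 16. Group means were 1.46 ± 0.115 and 1.60 ± 0.273 (SD, n = 3 each), a ratio of 1.09 (two-sided exact permutation test, p = 0.6). NF 14 alone set the direction, and without it the ratio was 0.989. Spike-in totals were taken as deposited, and the 25 spike-in rows that needed no factor gave the same ratio of 1.09 (two-sided exact permutation test, p = 0.7). The labels do not say whether spike-ins were added per embryo or per mass of RNA.

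Most of the rows tested differed between the groups, and more rows were lower than higher. The test ran over 19872 rows, those averaging 1 TPM or more in the 6 libraries. Of these, 4019 were higher and 9015 lower in the later group in TPM (limma, Benjamini-Hochberg adjusted p under 0.05). That is 20.2% and 45.4% of the rows tested, or 65.6% in all. A change of at least 2-fold was seen in 3210 of the higher and 7407 of the lower rows, at least 4-fold in 1742 and 3096, and at least 8-fold in 857 and 845. Falls were thus more numerous at small and moderate size, while changes of 8-fold or more were about equally many in both directions in TPM. This balance depended on the scale, with 936 higher and 758 lower rows at 8-fold or more per spike-in total and 1226 and 337 by median ratios, the scalings described next. The median log2 change was 1.79 among higher rows, -1.62 among lower rows and -0.61 over all rows tested. The levels of both groups did not overlap in 4517 rows on the higher side (22.7%) and 9956 on the lower side (50.1%), 72.8% of rows together. Folds are on the log2(TPM + 1) scale, which understates the change of low rows. The share called holds for rows that passed the filter. Without it, over all rows with a mean above 0, 13298 of 27640 were called in TPM, 4335 higher and 8963 lower.

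The direction of the majority depended on the scale. Divided by the spike-in total, 4052 rows (20.4%) passed as higher and 7910 (39.8%) as lower, or 60.2% together (limma, adjusted p under 0.05). The median row then changed by -0.50. Scaling by median ratios, which sets the median row near 0 by construction, gave 6264 higher and 5324 lower, or 31.5% and 26.8% (58.3% together), and the median was 0.052. Of the rows called higher in TPM, 3871 were so on every scale. Of those called lower in TPM, 5324 were lower on every scale, and 3691 were not called lower by median ratios. No row called in TPM was called in the other direction by either other scale (0 rows). This is in part arithmetic, since the scales differ by 1 factor per library. Median ratios divided the earlier libraries by 1.18 or more and the later ones by 0.905 or less. A row higher in TPM could therefore not turn lower by median ratios.

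**Figure D2:**
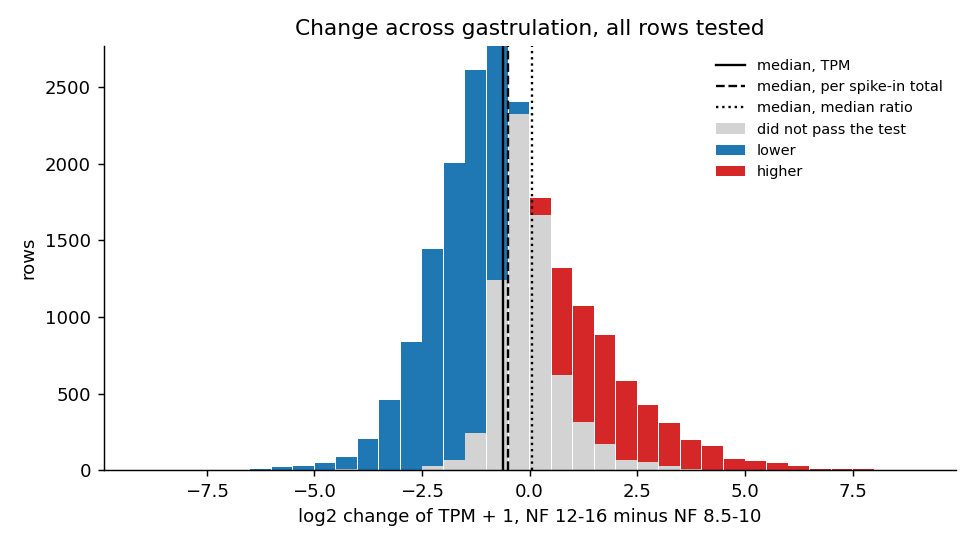
Number of rows by log2 change of TPM + 1 from the earlier to the later group, stacked by outcome of the test in TPM (grey did not pass, blue lower, red higher). Black lines mark the median change of all rows, at -0.61 in TPM, -0.50 per spike-in total and 0.052 with median ratio scaling, and the falls outnumber the rises between 2-fold and 8-fold.

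The same test was run on 2 other pairs of neighbouring windows of 3 stages each. NF 6.5 to 8 against NF 0 to 6, stages before most zygotic transcription, gave 0 rows of 17611 with limma (0%). In that comparison 2458 rows had an unadjusted p under 0.05. NF 26 to 33 against NF 18 to 23, later embryos during organ formation, gave 3 of 22225 in TPM (0.0135%), with 7254 at an unadjusted p under 0.05. Per spike-in total these comparisons gave 20 rows (0.114%) and 6260 rows (28.2%), of which the second held 27.1% higher and 1.08% lower. Both comparisons pair columns over 1000000 with columns that are not, in the same order as across gastrulation, and share no library with it. The difference between comparisons was tested directly. With the change from NF 0 to 6 to NF 6.5 to 8 subtracted, the remaining change was positive in 3932 rows (19.8%) and negative in 9092 (45.8%). That is 65.5% together (limma on 12 libraries, adjusted p under 0.05). Of these, 3722 and 8558 were also called higher and lower above. With the change from NF 18 to 23 to NF 26 to 33 subtracted, the counts were 4123 (20.7%) and 7959 (40.1%), 60.8% together. Of these, 3467 and 7271 were also called higher and lower above. Both tests use the 6 libraries of the main comparison again, so overlap with its calls is in part set by construction. From NF 0 to 6 to NF 6.5 to 8 the median row changed by just 0.015 on the log2 scale, so little was subtracted there. An effect of the kind of column that is the same in each comparison cancels in both tests. An effect that differed between them was not tested.

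The spike-ins, which have no stage, showed a small spread in the values as deposited. In the 3 earlier columns alone, all but 25 of the 92 spike-in rows carry the factors described above. The small difference between groups thus holds after that step, and values with the factors undone were not tested. Of 83 spike-in rows, 1 was called (1.2%), with a log2 change of -0.14 ± 0.02 (SE, limma adjusted p = 0.0206), and the median absolute log2 change was 0.10. Another 3 rows differed 2-fold or more without passing the test, and the largest absolute log2 change was 2.28. At an unadjusted p under 0.05 (limma) there were 10 of the 83 rows (12.0%). The median SD over the libraries of a group was 0.09 in both groups, below that of the Xenopus rows. The 92 spike-in rows were scaled to a total of their own, so they stand at higher levels than most Xenopus rows. Spread on the log2 scale varies with level, so these values are not a like comparison.

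How often rows changed went with their level. Rows were split into 5 equal classes by their mean over the 6 libraries. In the lowest class, from 1 to 4.77 TPM, 25.7% of rows were higher and 25.6% lower in the later group. In the middle class, from 12.7 to 26.0 TPM, 12.8% were higher against 58.3% lower, and the median row changed by -1.03 on the log2 scale. In the next class up 13.7% were higher and 58.8% lower. In the highest class, from 53.7 TPM upwards, 30.3% were higher against 36.6% lower, and the median row changed by -0.15. Falls thus prevailed in the middle of the range, and rises and falls were closer in number at both ends. The median standard error shrank from 0.41 in the lowest to 0.21 in the highest class, so that small changes are more readily called among abundant rows.

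The most abundant transcripts were in part replaced. Of the 100 rows with the highest mean in the earlier group, 55 were also among the 100 highest in the later group. In the earlier list 27 rows were called lower, 25 higher and 48 neither, and 95 of the 100 stayed at 10 TPM or more in all 3 later libraries. In the later list 69 rows were called higher, 2 lower and 29 neither. Over all rows tested 20.2% were higher and 45.4% lower, and in the highest of the 5 classes by level 30.3% and 36.6%. Each list was chosen by libraries that the test also used. Lower calls are therefore favoured in the earlier list and higher calls in the later one by construction. Of the 100 rows of the later list, 92 stood at 10 TPM or more in all 3 earlier libraries and none was under 1 TPM in all of them (0 rows). In the 6 libraries from NF 0 to NF 8, before the earlier group, 8 of the 100 were under 1 TPM throughout. The earlier list held 15.8%, 17.0% and 25.0% of the total at NF 8.5, NF 9 and NF 10, and 22.9%, 22.0% and 18.7% at NF 12, NF 14 and NF 16. The later list held 13.2%, 14.2% and 22.8%, and then 26.5%, 28.3% and 26.3%. Both lists thus rose in share between NF 9 and NF 10. In libraries that did not choose the lists, 72 rows of the earlier list were among the 100 highest by the mean of NF 0 to NF 8, and 56 rows of the later list by the mean of NF 18 to NF 33.

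The rows called in the comparison mostly made their largest move between NF 10 and NF 12. For each row the 5 steps between neighbouring libraries were compared on the log2 scale in the direction of its difference. These steps span unequal parts of the NF scale and were not scaled to time, so their size is not a pace. The step from NF 10 to NF 12 was the largest for 2759 of 4019 higher rows (68.6%) and 5522 of 9015 lower rows (61.3%), against 25.4% of the 6838 rows that were not called. The step from NF 12 to NF 14 was the largest for 688 higher rows (17.1%) and 2415 lower rows (26.8%). The step from NF 9 to NF 10 was the largest for 484 (12.0%) and 904 (10.0%). The outermost steps took few rows, with 53 higher and 28 lower rows from NF 8.5 to NF 9, and 35 higher and 146 lower rows from NF 14 to NF 16. This interval, NF 10 to NF 12, also divides the groups, so a call favours it by construction, and no test was made. In 764 higher rows (19.0%) and 1704 lower rows (18.9%) no step ran against the direction of the difference.

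**Figure D3:**
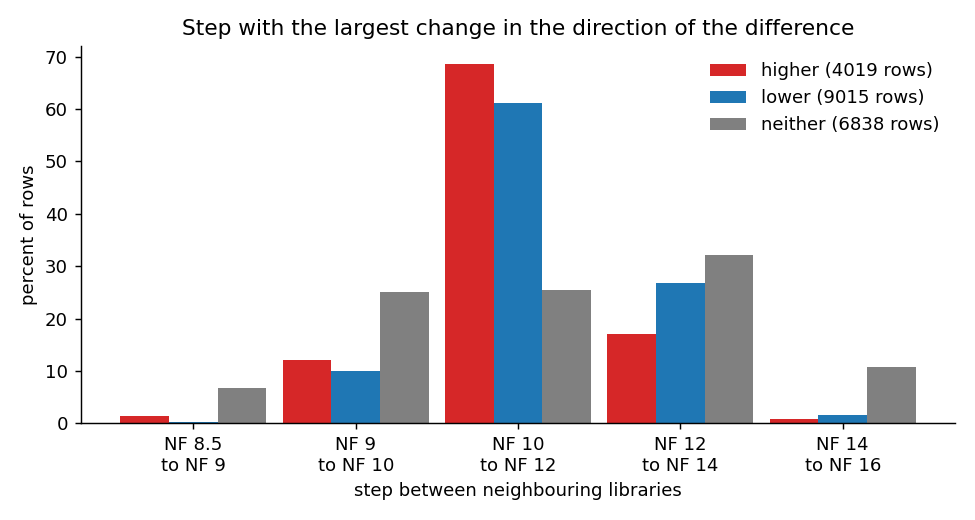
Percent of rows whose largest step, in the direction of their difference, falls between each pair of neighbouring libraries, for rows higher (red), lower (blue) and not called (grey). The step from NF 10 to NF 12 leads with 68.6% of higher and 61.3% of lower rows. Steps span unequal parts of the NF scale.

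Rises and falls were each followed from stage to stage. Progress was measured for called rows that changed 2-fold or more from NF 8.5 to NF 16, as the percent of their log2 change already made. At NF 9 the median was 0% over 3311 higher rows and 1.86% over 7949 lower rows. At NF 10 it was 11.6% for higher rows, with quartiles at 0% and 38.5%, and 20.9% for lower rows, with quartiles at 8.41% and 36.7%. At NF 12 the medians were 76.4% and 71.9%, and at NF 14 they were 95.9% and 99.1%. Per spike-in total, a scale added after seeing the data, the medians for higher and lower rows were 6.59% and 28.9% at NF 10, 71.4% and 77.4% at NF 12, and 107.5% and 86.2% at NF 14. The quartile ranges of both sets overlapped widely at NF 10, and at NF 12 and NF 14 the order of the medians turned with the scale. The difference between rises and falls was not tested, since each stage has 1 library.

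Followed through the whole series, the called rows changed hands with respect to the total. The 9015 lower rows held 52.0%, 50.3% and 37.4% of the Xenopus total at NF 8.5, NF 9 and NF 10, and 19.4%, 13.2% and 13.2% at NF 12, NF 14 and NF 16. The 4019 higher rows held 15.7%, 16.4% and 20.4%, and then 41.9%, 52.6% and 55.9%. These shares follow from how the rows were chosen. In the 12 libraries that the comparison did not use, lower rows held between 52.4% and 53.0% at every stage from NF 0 to NF 8, and between 12.2% and 14.7% from NF 18 to NF 33. Higher rows held between 16.3% and 17.3% before and between 49.7% and 57.4% after. Both sets were therefore level up to NF 9, crossed between NF 10 and NF 12, and kept their new share to the last stage within these ranges. Rows that were not called held 42.1% at NF 10, against 33.1% at NF 9 and 30.6% at NF 16.

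**Figure D4:**
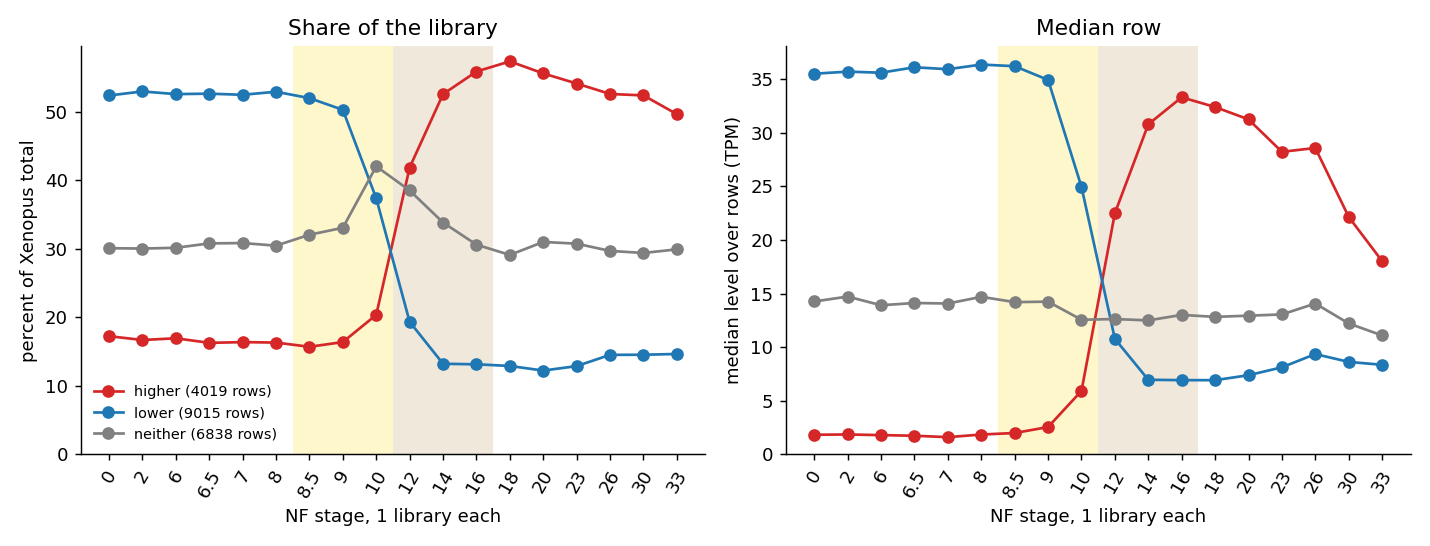
Share of the Xenopus total (left, percent) and median level (right, TPM) of the rows higher, lower and not called, in each of the 18 libraries ordered by NF stage. Yellow marks the earlier and tan the later group, and the lower rows drop from 52.0% at NF 8.5 to 13.2% at NF 16 while the higher rows climb from 15.7% to 55.9%.

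The rows that fell were mostly present from the egg onwards. Of the 9015 lower rows, 7461 (82.8%) stood at 10 TPM or more in all 6 libraries from NF 0 to NF 8, against 62.7% of all rows tested. Another 24 were under 1 TPM in all 6. A call as lower requires a higher level at NF 8.5 to NF 10, so it favours rows present by then. This contrast is thus in part set by construction. The median of the lower rows was 36.2 TPM at NF 8.5 and 24.9 TPM at NF 10, then 10.8 TPM at NF 12 and 6.93 TPM at NF 16. The share of lower rows under 1 TPM was 0.277% at NF 10, 14.4% at NF 16 and 14.0% at NF 18. Over all rows tested it was 10.3%, 9.70% and 10.0%. In the 6 libraries from NF 18 to NF 33, 340 lower rows (3.77%) were under 1 TPM throughout, close to the 2.86% of all rows tested. A further 2631 (29.2%) stayed at 10 TPM or more in all 6, against 40.1%. A call as lower favours a low level at NF 12 to NF 16, just before, so this contrast too is in part set by construction. The median of the lower rows moved from 6.93 TPM at NF 18 through 9.36 TPM at NF 26 to 8.36 TPM at NF 33. On the spike-in scale it was 8.59 at NF 18 and 23.1 at NF 33, where the scale is set so that the 6 libraries compared have a geometric mean total of 1000000. Over all rows tested the median on this scale also rose, from 13.7 to 28.4. Of the 8272 lower rows that were also tested in NF 26 to 33 against NF 18 to 23, 2643 (32.0%) were higher there per spike-in total and 46 (0.556%) were lower (limma, adjusted p under 0.05), against 24.5% and 1.27% of all rows tested in both. In TPM 0 of these 8272 rows were called there in either direction, so the later rise of the lower rows was called per spike-in total and not in TPM.

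The rows that rose differed in their level before NF 8.5. Of the 4019 higher rows, 1664 (41.4%) were under 1 TPM in all 6 libraries from NF 0 to NF 8, against 12.3% of all rows tested, and 856 of these were listed at 0 in all 6. Another 1462 (36.4%) stood at 10 TPM or more in all 6 of these libraries, a smaller share than the 62.7% of all rows tested, so that these transcripts were already held by the egg. The other 893 (22.2%) were in neither class, against 25.0% of all rows tested. A row under 1 TPM up to NF 8 entered the test only if it averaged 1 TPM or more in the 6 libraries compared. Filter and call thus favour risers among such rows, and these contrasts with all rows tested are in part set by construction. The median of the higher rows went from 2.00 TPM at NF 8.5 to 5.93 TPM at NF 10, and from 22.5 TPM at NF 12 to 33.3 TPM at NF 16. From NF 18 to NF 33, 2364 (58.8%) stayed at 10 TPM or more in all 6 libraries, against 40.1% of all rows tested, and 5 fell under 1 TPM in all 6. Among rows not called, 43.4% were at 10 TPM or more in all 6. A call as higher favours a high level at NF 12 to NF 16, just before, so this contrast too is in part set by construction. In TPM the median of the higher rows slid from 32.4 at NF 18 to 18.0 at NF 33, while per spike-in total it went from 40.2 to 49.7. The median of all rows tested went from 13.7 to 28.4 per spike-in total. Of 3976 higher rows tested again in NF 26 to 33 against NF 18 to 23, 577 (14.5%) were higher there and 133 (3.35%) lower per spike-in total (limma, adjusted p under 0.05). The shares over all rows tested in both were 24.5% higher and 1.27% lower. In TPM 0 of them were called there in either direction.

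Few transcripts were switched fully on or off between the groups. Rows under 1 TPM in each earlier library and at 10 TPM or more in each later library numbered 136, and rows with the reverse pattern numbered 12. The counts depend on the libraries at the inner edges. Without NF 10 there were 370 rows on and 81 off, and without NF 12 there were 393 on and 147 off. Without NF 14 there were 21 off. The 136 rows switched on had a median of 0.241 TPM over the earlier and 32.9 TPM over the later libraries, and 7 of them reached a later mean of 100 TPM or more. Of these 136 rows, 129 (94.9%) were also under 1 TPM in all 6 libraries from NF 0 to NF 8, against 12.3% of all rows tested. The 136 rows were chosen for a level under 1 TPM in the earlier libraries and entered the test through the later ones. This contrast is thus in part set by construction. The median of the 136 rows went from 19.5 TPM at NF 12 to 36.8 TPM at NF 16, and from 35.0 TPM at NF 18 to 10.4 TPM at NF 33. The number still at 10 TPM or more was 131 at NF 18 and 68 at NF 33. Per spike-in total the median of the 136 rows was 43.4 at NF 18 and 28.6 at NF 33, against 13.7 and 28.4 over all rows tested. Of the 12 rows switched off, 10 had been at 10 TPM or more in all 6 libraries from NF 0 to NF 8, and 6 were under 1 TPM in all 6 libraries from NF 18 to NF 33. Which of these changes reflect synthesis and which reflect decay was not tested.

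The largest rise on the log2(TPM + 1) scale was that of row XeXenL6RMv10025984m. It stood at 0.783, 0.601 and 0.420 TPM at NF 8.5, NF 9 and NF 10, and at 239, 641 and 737 TPM at NF 12, NF 14 and NF 16. All 3 later libraries lay far above all 3 earlier ones, and the log2 change was 8.25 ± 0.42 (SE, limma adjusted p = 0.000447). Per spike-in total it was 8.32. At later stages, NF 18 to NF 33, the row ranged from 457 TPM, at NF 33, to 935 TPM, at NF 20. The next largest rise, in row XeXenL6RMv10025985m, has the adjacent name in the table and a parallel course. The order of these rows depended on the setting, with log2 changes of 6.45 for the first and 7.10 for the second at pseudocount 5, and of 7.77 and 7.79 in the values as deposited. It stood at 7.14, 5.28 and 1.54 TPM in the earlier and at 703, 1586 and 1861 TPM in the later libraries, which gives a log2 change of 7.98 ± 0.52 (SE, limma adjusted p = 0.000475). Unlike the first row, it was listed at 0 in all 6 libraries from NF 0 to NF 8. It was low but present at NF 8.5, where the form of the column header also changes. If both are near-identical copies, as adjacent or duplicated genes can be, reads could have been split between them, which was not tested.

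The 2 largest falls were in abundant maternal transcripts. Row XeXenL6RMv10023192m stood between 739 and 834 TPM in the 6 libraries from NF 0 to NF 8. It was at 584, 464 and 91.0 TPM at NF 8.5, NF 9 and NF 10, and at 3.59, 1.72 and 0.383 TPM at NF 12, NF 14 and NF 16. Its log2 change was -6.82 ± 0.76 (SE, limma adjusted p = 0.00101). Its level at NF 8.5 was below the range of NF 0 to NF 8, but the form of the column header also changes between these libraries. Row XeXenL6RMv10046028m stood between 771 and 854 TPM from NF 0 to NF 8. It was at 869, 809 and 129 TPM in the earlier and at 5.12, 2.93 and 1.78 TPM in the later libraries, or a log2 change of -6.79 ± 0.74 (SE, limma adjusted p = 0.000971). At NF 9 this row was still within its range of NF 0 to NF 8, and at NF 10 it was well below it. From NF 18 to NF 33 both rows ranged between 0 and 2.02 TPM. These 4 rows were picked as the largest changes among 9435 candidates, so their sizes are at the extreme of the distribution.

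**Figure D5:**
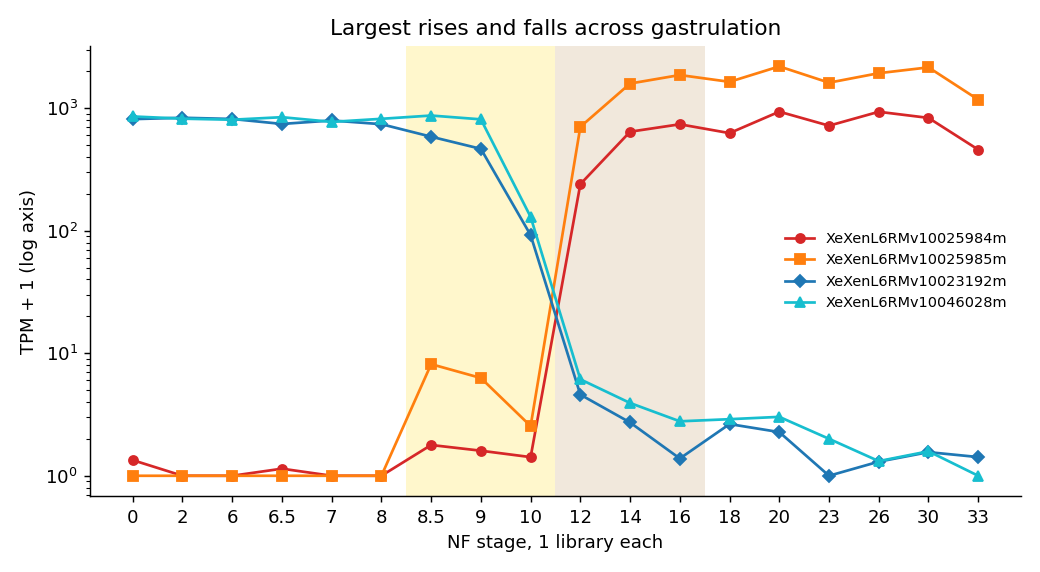
Level (TPM + 1, log axis) of the 2 rows with the largest rises and the 2 rows with the largest falls in each of the 18 libraries by NF stage, with the earlier group in yellow and the later group in tan. The falling rows drop to 91.0 and 129 TPM at NF 10, and the rising rows reach 239 and 703 TPM at NF 12.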

How the data were processed

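RNA of whole embryos was sequenced by the authors, 1 library per stage. The submitters' processing notes list CASAVA 1.8.2, RSEM, Bowtie and Trimmomatic without saying what each did. No genome build is named in the labels or in these notes. By their sums, the deposited values of 9 columns are TPM. The other 9 deposited columns are a TPM-like signal with sums over 1000000, and the authors' step that altered their spike-in rows is not given in the labels. The design written beforehand assumed TPM throughout.

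Spike-in rows were dropped and each library was scaled to 1000000, or divided by its spike-in total as deposited. Values were tested as log2(TPM + 1), pseudocount 1, in R 4.3.3 by limma 3.58.1 (moderated variance with an intensity trend), over the 6 libraries and the 19872 rows that averaged 1 TPM or more. P-values were adjusted by Benjamini-Hochberg and called under 0.05. The test was tried on simulated data with independent normal noise. Such data do not copy the drift between neighbouring stages of a group, so no support is drawn from them. Single values per library were compared by exact permutation (scipy 1.17.1). Rows are named if they are among the top 2 rises or the top 2 falls called both in TPM and per spike-in. They also had to average 10 TPM or more in the higher group, with groups that do not overlap and no isolated 0. Stages, members, lists and rules were chosen with earlier results of these data known. The switched classes and the split by abundance rest on the same libraries as the test and are descriptions.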

Additional observations from a re-analysis of the deposited data

How the results depend on the processing

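Counts of higher and lower rows stayed within 1.5 times of those in TPM under 18 of 19 alternatives, which covered scaling, pseudocount, filter, fit over 18 libraries, array weights, each left-out library and both differences of differences. The one against NF 18 to 33 and the spike-ins with no factor were chosen after seeing the data. The exception was median ratio scaling, with 6264 higher and 5324 lower rows. Leaving out 1 library gave between 2967 and 4400 higher and between 6558 and 9664 lower rows in TPM, and between 2806 and 4619 higher and between 5528 and 8497 lower rows per spike-in total. The median log2 change turned to 0.052 with median ratio scaling, which sets it near 0 by construction. It was -0.43 with pseudocount 5 and -0.18 with no filter, and between -0.68 and -0.55 with 1 library left out. The ratio of Xenopus to spike-in totals ran from 0.989, without NF 14, to 1.17. The difference in rows above 0 ran from 1515 to 1923, that in rows at 10 TPM or more from -2727 to -2336, and that in the share of the 100 most abundant rows from 5.98 to 10.6 percentage points. Rows switched on ran from 141 to 393 and rows switched off from 12 to 147 with 1 library left out. With a limit of 5 TPM in place of 10 there were 278 on and 72 off, and with median ratio scaling 5 were off. The cause was not tested, except that a lower limit or fewer libraries admits more rows by construction. The 4 rows named kept their direction and their call under all 19 alternatives, with a largest adjusted p of 0.0076. No paired analysis was possible because each stage has 1 library and the labels give no replicate numbers. With 3 libraries a group and no read counts, depth cannot be weighed, and rows with small changes remain uncalled more readily at low levels.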

Other observations

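Some transcripts stood out at 1 stage of the 6. Rows at 10 TPM or more in 1 of the 6 libraries and at least 2 times each of the other 5 were counted after the data were seen. NF 10 had 109 such rows. The other earlier libraries, NF 8.5 and NF 9, had 50 and 31, and the later ones, NF 12, NF 14 and NF 16, had 70, 48 and 90. Of the 109 rows highest at NF 10, 103 were called neither higher nor lower across gastrulation and 6 were called lower. Of those highest at NF 8.5 and NF 9, 11 and 8 were called lower, and of those highest at NF 12, NF 14 and NF 16, 26, 11 and 39 were called higher. Over all 19872 rows tested, 20.2% were called higher, 45.4% lower and 6838 rows neither. A peak in 1 library widens the spread of its group, and the group that holds it favours 1 direction of call. These counts thus follow in part from how the rows were chosen. The 109 rows highest at NF 10 held 0.724% of the Xenopus total at NF 9 and 2.33% at NF 10. Their share was down to 0.840% at NF 12 and 0.360% at NF 16. Just 10 of them held 1.41% of the total at NF 10. Of these 109 rows, 65 were under 1 TPM in all 6 libraries from NF 0 to NF 8, and 17 were under 1 TPM in all 6 from NF 18 to NF 33. Over all rows tested these classes held 12.3% and 2.86%. The 109 rows were picked for their peak at NF 10, so the rise of their own share there is built in. The share of all uncalled rows went from 33.1% at NF 9 to 42.1% at NF 10, and 6 of the 109 rows are not among the uncalled. Each stage has 1 library, so a peak at 1 stage has no replicate check.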
